A study of Bos taurus with 30 samples.

Results

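The telomeric ends of the bovine autosomes were examined in 30 lists of ATAC-seq peaks. An end was the last 3 Mb of an autosome, counted back from the largest peak end that any of the 30 lists gave for that chromosome, and a peak belonged to it where its start lay in that stretch. Position alone chose the members, so that their number, width and height were free to differ. Of 2172195 peaks in all lists, 2090048 lay on the 29 autosomes, and 100085 of these were terminal. The 29 ends together span 87 Mb, which is 3.50% of the 2488 Mb reached by autosomal peaks, and the remainder of the same autosomes is called the rest.

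In ATAC-seq a transposase inserts adapters where DNA is accessible, and stretches with more insertions than their surroundings in the same library are called peaks. The study profiled pooled germinal vesicle (GV) oocytes, in vitro produced embryos of several stages, the inner cell mass of blastocysts (ICM) and cultured embryonic stem cells (ESC). Part of the early embryos was cultured with α-amanitin, and these are called transcription blocked embryos (TBE). The comparison of stages asks how chromatin is remodeled before and during activation of the embryonic genome, and the TBE comparison asks how far this depends on embryonic transcription.

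Each of 10 conditions had 3 libraries. GV oocytes were taken before maturation, without α-amanitin. Embryos of the 2-cell stage were collected 30 to 32 h post-insemination, those of the 4-cell stage at 2 days, of the 8-cell stage at 3 days, morula at 5 days and blastocysts for ICM at 7 days, all without α-amanitin. The 2-cell TBE, 4-cell TBE and 8-cell TBE groups were collected at the times of their stages, in medium with 50 µg/ml α-amanitin. The ESC came from lines derived from ICM, grown without α-amanitin on mouse feeder cells from which they were separated by plating, and 50000 cells entered a library. Other libraries held at least 500 cells of a pool, so each list describes a mixed population. GV, 2-cell and 4-cell libraries, TBE included, were amplified for 13 cycles, and 8-cell, 8-cell TBE and morula libraries for 11 cycles. Stage and cycle number therefore cannot be told apart between the 4-cell and the 8-cell stage, whereas 8-cell control and 8-cell TBE libraries had the same number.

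Cattle autosomes are acrocentric, with the centromere close to the start of the sequence and the telomere of the long arm at its far end. Mammalian chromatin next to telomeres is often rich in genes and in GC, and telomeric repeats themselves are poorly resolved by short reads. In cattle the embryonic genome is activated mainly at the 8-cell stage, and α-amanitin blocks transcription by RNA polymerase II.

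Lists differed in length, from 925 peaks in 2-cell TBE replicate 1 to 247513 in 8-cell TBE replicate 2, with no order by stage alone. Terminal peaks numbered 3022, 3529 and 3278 in the GV libraries, 48, 59 and 294 in 2-cell, 2564, 1261 and 778 in 4-cell, and 4399, 4074 and 4783 in 8-cell libraries. The later libraries held 5377, 8337 and 7023 terminal peaks in morula, 3891, 3232 and 4908 in ICM, and 1326, 5221 and 3813 in ESC. Terminal peaks of TBE libraries numbered 35, 452 and 631 in 2-cell TBE, 1805, 212 and 142 in 4-cell TBE, and 7933, 14115 and 3543 in 8-cell TBE. Numbers in the 2-cell, 4-cell, ESC and TBE groups thus differed several-fold between replicates of a group, and the densities below are therefore given relative to the rest of the same library. The reads behind each list were not among the data read here.

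With all peaks, the ends of the autosomes were denser than the rest in 9 of 10 conditions, and 8-cell embryos were the exception. The density of terminal peaks over that of the rest was 2.36, 2.62 and 2.31 in the GV libraries, 1.91, 1.74 and 1.47 in 2-cell, and 1.89, 1.68 and 1.67 in 4-cell libraries. It was 1.05, 0.934 and 0.902 in 8-cell libraries, 1.13, 1.204 and 1.23 in morula, 1.37, 1.03 and 1.25 in ICM, and 1.00, 1.09 and 1.14 in ESC. It was 1.44, 1.72 and 1.77 in 2-cell TBE, 1.72, 1.66 and 1.46 in 4-cell TBE, and 2.74, 1.73 and 2.18 in 8-cell TBE. By condition means with all peaks, GV oocytes and 8-cell TBE thus had the highest ratios. Embryos before the 8-cell stage came next, and morula, ICM and ESC lay close to the rest. The lowest 8-cell TBE library, at 1.73, lay below single 2-cell, 4-cell and 2-cell TBE libraries. With fold enrichment of at least 3, means were 1.736 in 8-cell TBE, 1.723 in 2-cell and 1.720 in 4-cell embryos. With the 708 strongest peaks by −log10 p, GV oocytes (1.85) lay below 2-cell embryos (1.89). Replicates 2 and 3 of the 8-cell stage were the 2 of 30 libraries with fewer peaks per Mb at the ends than elsewhere. The conditions below 1 depended on the peaks used, since with the 10000 strongest peaks of each library by −log10 p mean ratios were 1.08 in 8-cell embryos, 0.878 in ICM and 0.882 in ESC, and with the 708 strongest they were 1.22 in 8-cell embryos and 0.749 in ICM. With peaks of −log10 q of at least 3 they were 0.876 in 8-cell embryos, 0.985 in ICM and 0.928 in ESC.

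**Figure D1:**
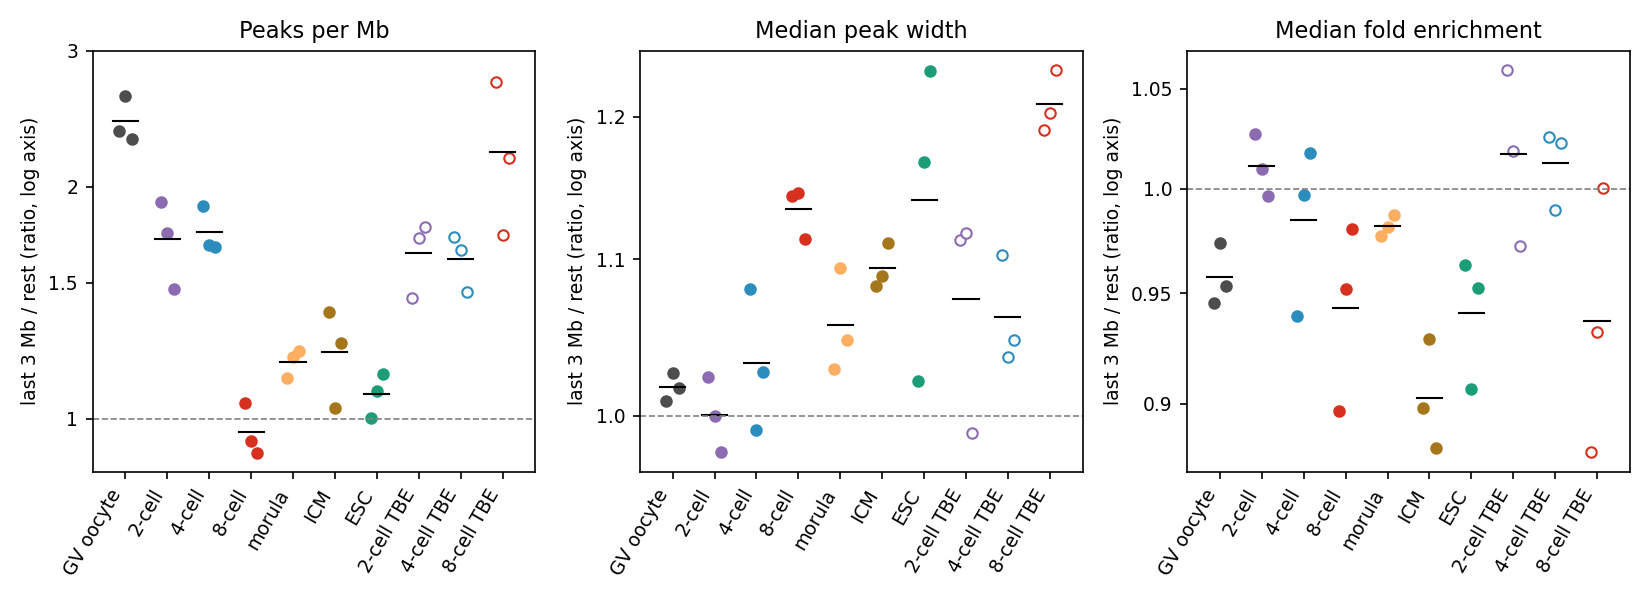
Ratio of terminal to rest for peaks per Mb, median peak width and median fold enrichment (unitless ratios on log axes), by condition on the horizontal axis. Each point is a library (open circles, TBE), black bars are means of 3 libraries and the dashed line marks a ratio of 1. Density ratios of the 3 8-cell libraries lay between 0.902 and 1.05, and those of the 3 8-cell TBE libraries between 1.73 and 2.74.

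Over the 10 condition means the log2 density ratio averaged 0.59 ± 0.44 (SD, n = 10 conditions), a 1.51-fold excess at the ends (exact two-sided sign-flip permutation test, p = 0.00391, adjusted p = 0.00586 over the 3 measures). The log2 ratio differed between conditions by more than between replicates (permutation test with 100000 relabellings, F = 20.8, p = 1e-05, the smallest they can give, adjusted p = 3e-05). The excess was measured against chromosome-wide densities, and against the neighbouring stretch from 3 to 6 Mb before the end it averaged 0.18 on the log2 scale (exact sign-flip permutation test, n = 10 conditions, adjusted p = 0.0205). The call was lost with the 708 strongest autosomal peaks of each library by −log10 p (mean 0.51), with peaks of −log10 q of at least 3 (0.58) and with the top 10000 peaks in the 7 conditions that had them (0.43), with adjusted p of 0.0527, 0.0645 and 0.172 by exact sign-flip permutation tests.

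In absolute terms, GV oocytes had 37.7 ± 2.91 terminal peaks per Mb against 15.5 ± 0.810 in the rest (mean ± SD, n = 3 libraries, as for all densities here). Densities of ends and rest were 1.54 ± 1.60 and 0.990 ± 1.13 per Mb at the 2-cell, 17.6 ± 10.6 and 9.88 ± 5.25 at the 4-cell, and 50.8 ± 4.08 and 53.1 ± 6.82 at the 8-cell stage. Morula had 79.5 ± 17.05 and 66.8 ± 12.4, ICM 46.1 ± 9.71 and 37.8 ± 6.42, and ESC 39.7 ± 22.7 and 36.2 ± 20.1. Ends and rest thus followed the same order of stages, with the lowest densities at the 2-cell stage and the highest control densities in morula. The 8-cell TBE group had 98.1 ± 61.0 terminal peaks per Mb, with 91.2, 162 and 40.7 in its libraries, against 48.6 ± 39.8 in its rest. Its terminal densities overlapped those of 8-cell controls, which were 50.6, 46.8 and 55.0 per Mb, and only the ratio to the rest kept the groups apart.

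Between GV oocytes and the 2-cell stage, the mean terminal density went to 0.0408 of its value and that of the rest to 0.0639. Without 2-cell replicate 3, which had the most peaks of its group, these values were 0.0163 and 0.0219. The log2 density ratio was 0.51 lower in 2-cell embryos (standard error 0.12, exact permutation test, p = 0.1, adjusted p = 0.225 over 9 comparisons), and no 2-cell library reached the lowest GV library. With 3 libraries against 3, p cannot go below 0.1, and the adjusted values of all 9 comparisons were 0.225 or more. Of the 29 ends, 15 had all 3 GV libraries above all 3 2-cell libraries in relative density, against 17.3% of 816 windows of 3 Mb that tile the autosomes from their ends. The direction of this step was changed by 2 settings, with values of 0.18 against the stretch from 3 to 6 Mb and 0.09 with the 708 strongest peaks. It was 0.03 lower with peaks of −log10 q of at least 3 (exact permutation test, p = 0.6, adjusted p = 0.675) and 0.29 lower in the last 1 Mb (exact permutation test, p = 0.5, adjusted p = 0.8).

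From the 2-cell to the 4-cell stage, mean densities were 11.5-fold higher at the ends and 9.97-fold higher in the rest. Both values rested on 2-cell replicate 3, without which they were 28.7-fold and 29.1-fold. The log2 density ratio differed by 0.04 (standard error 0.12), the libraries of the groups overlapped, and the exact permutation test gave p = 1 (adjusted p = 1). The direction had no stability, with a reversal in 7 of 12 alternatives, among them 0.37 lower in 4-cell embryos with −log10 q of at least 3 (exact permutation test, p = 0.1, adjusted p = 0.18) and 0.54 lower with the 708 strongest peaks. With −log10 q of at least 3, a 2-cell library held as few as 11 terminal peaks.

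At the 8-cell stage the density of the ends was close to that of the rest, unlike at the 4-cell stage. Mean terminal density was 2.88-fold that of 4-cell embryos, whereas that of the rest was 5.38-fold (2.31 to 4.33 and 4.38 to 7.59 when a library was left out). The log2 density ratio was 0.86 lower than at the 4-cell stage (standard error 0.09, exact permutation test, p = 0.1, adjusted p = 0.225), and the highest 8-cell library, at a ratio of 1.05, lay below the lowest 4-cell library, at 1.67. The difference was seen along the whole set of chromosomes, as the terminal density over that of the same autosome was lower at the 8-cell stage on 29 of 29 ends, by a median factor of 0.530. On 28 of 29 ends all 4-cell libraries exceeded all 8-cell libraries in relative density, against 22.4% of all windows, and chromosome 25 was the exception. All 29 ends had the GV libraries above the 8-cell libraries, against 32.5% of windows. With equal numbers of strongest peaks the difference was smaller, at 0.61 lower on the log2 scale for the top 10000 and 0.08 lower for the top 708, and it was 0.30 lower when only the stretch from 3 to 6 Mb served as the rest.

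**Figure D2:**
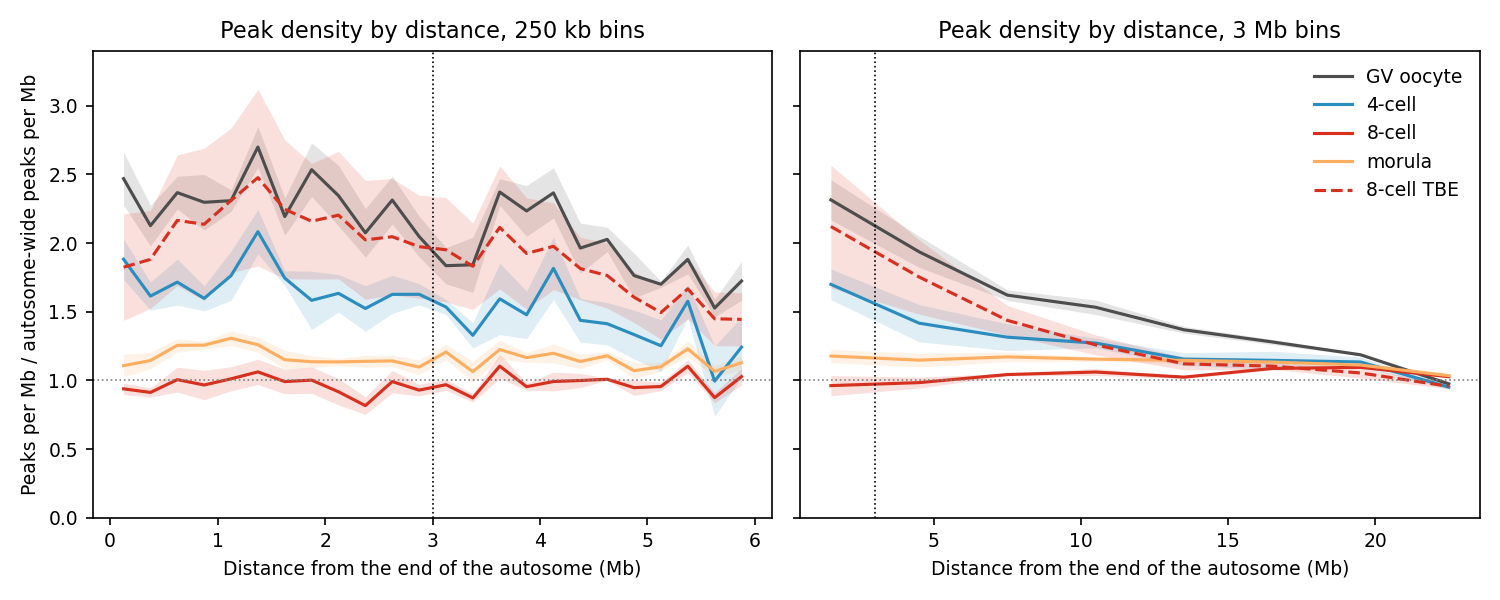
Peaks per Mb over the autosome-wide peaks per Mb of the same library (unitless, vertical axis) by distance from the end of the autosome in Mb, in 250 kb bins (left) and 3 Mb bins (right). Lines are means of 3 libraries, shading is ± 1 SD and the dotted vertical line marks 3 Mb. The 8-cell line stays near 1, between 0.962 and 1.10 in 3 Mb bins, while GV oocytes start at 2.31 and 8-cell TBE at 2.12.

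The boundary at 3 Mb did not coincide with a step in the data. In GV oocytes the density relative to the autosome-wide mean was 2.05 ± 0.148 in the last 250 kb inside the boundary and 1.84 ± 0.132 in the first 250 kb outside it (mean ± SD, n = 3), and in 8-cell embryos it was 0.929 ± 0.0417 and 0.969 ± 0.0399. In GV oocytes the 3 Mb bins declined from 2.31 ± 0.146 at the end through 1.94 ± 0.114 (3 to 6 Mb) and 1.62 ± 0.0383 (6 to 9 Mb) to 0.975 ± 0.0177 at 21 to 24 Mb. The 8-cell TBE group declined from 2.12 ± 0.446 through 1.75 ± 0.270 and 1.44 ± 0.108 to 0.957 ± 0.0179 over the same bins. The gradient thus reached far beyond the last 3 Mb. No such decline was seen in 8-cell embryos, whose bins lay between 0.962 ± 0.0732 at the end and 1.10 ± 0.00475 at 18 to 21 Mb. Each 8-cell library was slightly lower at the end (1.045, 0.937 and 0.906) than at 18 to 21 Mb (1.094, 1.101 and 1.0915).

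In the outermost 250 kb the relative density was 2.47 ± 0.193 in GV oocytes, 1.88 ± 0.147 in 4-cell, 0.939 ± 0.0414 in 8-cell embryos, 1.11 ± 0.0826 in morula and 1.82 ± 0.388 in 8-cell TBE (mean ± SD, n = 3). In 2-cell embryos it was 7.86, 2.76 and 2.01, from 17, 8 and 34 peaks, and the highest of these values came from a library with 742 autosomal peaks.

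From the 8-cell stage to morula, terminal density was 1.56-fold and rest density 1.26-fold higher. The log2 density ratio was 0.30 higher in morula (standard error 0.07, exact permutation test, p = 0.1, adjusted p = 0.225) with no overlap of libraries, but with the top 10000 peaks it was 0.04 higher and with the top 708 it was 0.07 lower. With only the stretch from 3 to 6 Mb as the rest, it was 0.0717 higher. Of the 29 ends, 20 had all morula libraries above all 8-cell libraries, against 29.2% of windows. Morula and ICM differed by 0.03 on the log2 scale (standard error 0.13, exact permutation test, p = 0.8, adjusted p = 0.9). ICM and ESC differed by 0.17, with ESC lower (standard error 0.13, exact permutation test, p = 0.3, adjusted p = 0.54). Libraries overlapped in both steps, and leaving out a replicate gave -0.09 to 0.16 for the former and -0.30 to -0.03 for the latter. Neither direction was stable, as ICM was 0.25, 0.35 and 0.71 below morula with −log10 q of at least 3, the top 10000 and the top 708 peaks, and ESC was 0.63 above ICM with the top 708.

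With all peaks, the density ratio differed little between TBE and control embryos before the 8-cell stage. Mean terminal density itself was 2.79-fold that of controls in 2-cell TBE and 0.469-fold in 4-cell TBE, with 2.49-fold and 0.495-fold in the rest. These folds depended strongly on single libraries. Terminal densities were 0.552, 0.678 and 3.38 per Mb in 2-cell and 0.402, 5.195 and 7.25 in 2-cell TBE libraries. They were 29.5, 14.5 and 8.94 per Mb in 4-cell and 20.7, 2.44 and 1.63 in 4-cell TBE libraries. Folds without single libraries were not computed for these 2 stages. The log2 density ratio of 2-cell TBE was 0.06 below that of 2-cell embryos (standard error 0.14, exact permutation test, p = 0.6, adjusted p = 0.771), and that of 4-cell TBE was 0.12 below that of 4-cell embryos (standard error 0.09, exact permutation test, p = 0.4, adjusted p = 0.6). In both stages the libraries overlapped, but the differences depended on the peaks used. With peaks of −log10 q of at least 3 the 2-cell libraries no longer overlapped and TBE was 0.45 lower (exact permutation test, p = 0.1, adjusted p = 0.18), whereas 4-cell TBE was 0.19 higher, and with the 708 strongest peaks 2-cell TBE was 0.26 lower and 4-cell TBE 0.45 higher. The former setting left few terminal peaks, at least 11 per library in 2-cell, 7 in 2-cell TBE and 17 in 4-cell TBE.

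At the 8-cell stage TBE had 2.27 times the density ratio of control embryos. The log2 difference was 1.18 (standard error 0.20, exact permutation test, p = 0.1, adjusted p = 0.225), and the lowest TBE library, at a ratio of 1.73, lay above the highest control library, at 1.05. The mean terminal density was 1.93-fold that of controls and the mean density of the rest 0.914-fold. Rest densities were 33.3, 93.7 and 18.7 per Mb in TBE and 48.3, 50.1 and 60.9 in controls, so that the fold of the rest had no stable direction. Without TBE replicates 1, 2 and 3 in turn the folds were 2.00, 1.30 and 2.49 at the ends and 1.06, 0.490 and 1.196 in the rest. On 29 of 29 ends the density over that of the same autosome was higher in TBE, by a median factor of 2.103. On 28 of 29 ends all 3 TBE libraries lay above all 3 control libraries in relative density, against 21.7% of windows, and chromosome 18 was the exception. This comparison and that of 4-cell with 8-cell embryos share the 8-cell control libraries. The log2 difference was 1.196 with the top 10000 peaks and 1.08 with the top 708, although list lengths in the TBE group ran from 50090 to 247513 peaks, and it was 0.30 with only the stretch from 3 to 6 Mb as the rest.

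**Figure D3:**
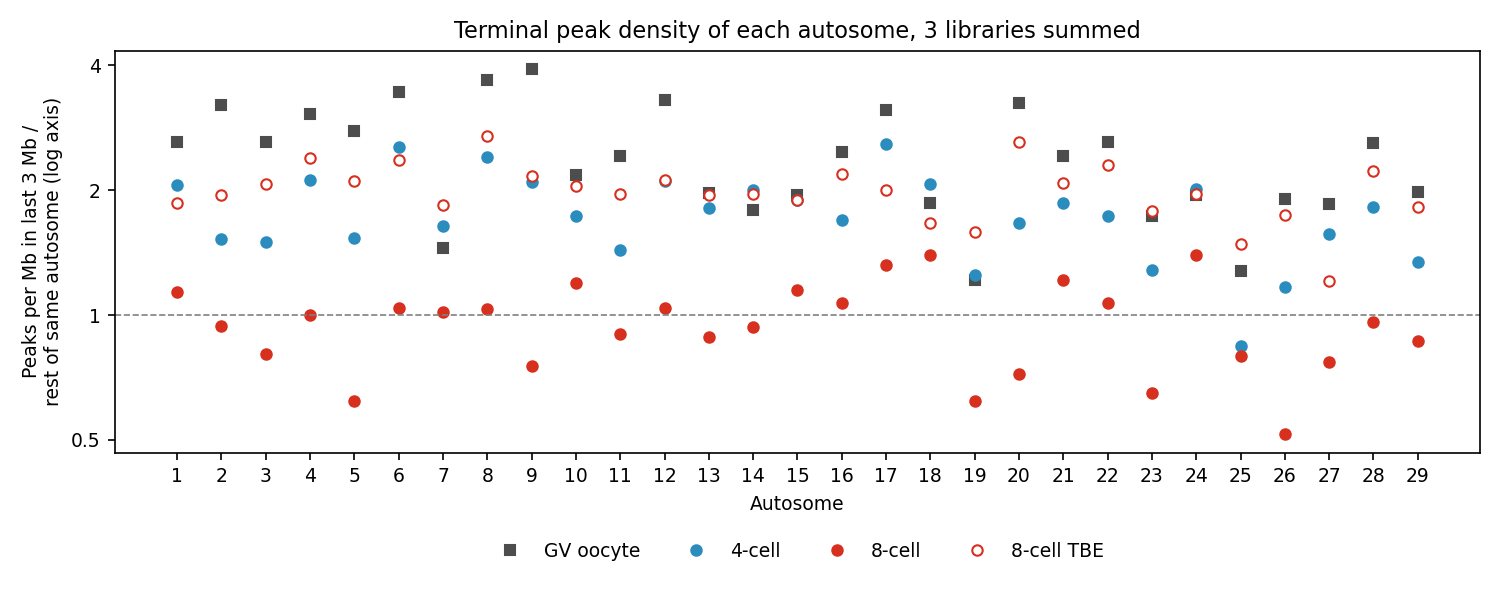
Peaks per Mb in the last 3 Mb over those in the rest of the same autosome (unitless, log axis) for each of the 29 autosomes, with the 3 libraries of a condition summed. Squares are GV oocytes, filled circles 4-cell (blue) and 8-cell (red) embryos and open circles 8-cell TBE. On every autosome the 8-cell circle lies below those of 4-cell embryos and 8-cell TBE, and 13 of 29 8-cell circles lie above 1.

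The ends differed among themselves. By the mean over conditions of the density relative to all ends, chromosomes 18 (1.52), 17 (1.29), 16 (1.12) and 21 (1.12) ranked highest and chromosomes 26 (0.646), 20 (0.770), 25 (0.829) and 27 (0.829) lowest. The end of chromosome 18 held 51.1 terminal peaks per Mb in GV oocytes, 30.8 in 4-cell embryos, 84.7 among 8-cell controls and 106 among 8-cell TBE, and its relative density ranged from 1.06 in morula to 2.20 in 2-cell TBE. The end of chromosome 26 held 32.0, 11.2, 25.8 and 82.1 per Mb in the same groups, and its relative density stayed between 0.467 and 0.850 in all 10 conditions. Chromosome 18 lay above the mean of the ends and chromosome 26 below it in every condition. Both were picked by their mean over these same conditions, so this is no separate sign of a shared order. Other named ends crossed the mean, with chromosome 17 at 0.941 in 8-cell TBE and chromosome 20 at 1.09 in GV oocytes and 1.18 in 8-cell TBE. Whether conditions share the order of all ends was not tested.

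Gene names were taken from a RefSeq table of another assembly, ARS-UCD2.0, in which the order of genes gives the outermost symbols but no position for the ARS-UCD1.2 peaks. On chromosome 18 these are MZF1, a zinc finger factor of myeloid cells, UBE2M, an enzyme of the neddylation pathway, CHMP2A, an ESCRT-III subunit, and TRIM28, the co-repressor of KRAB zinc finger proteins. On chromosome 17 they include the proline dehydrogenase gene PRODH and the Nogo receptor gene RTN4R, and on chromosome 21 the LIM protein genes CRIP1 and CRIP2. Among the ends with few peaks, chromosome 20 ends with SDHA, a subunit of succinate dehydrogenase, among its outermost genes, chromosome 25 with PDGFA, a growth factor, and FAM20C, a secretory kinase, and chromosome 27 with ZNF385D and the ubiquitin-conjugating enzyme genes UBE2E1 and UBE2E2. Whether peaks lie in these genes was not tested, since no annotation of the build of the peak lists was used here.

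Single ends changed place between conditions. The end of chromosome 7 had the lowest relative density of all ends in GV oocytes (0.555, 20.9 peaks per Mb) and the highest in 2-cell embryos (2.31), where an end held few peaks. The log2 ratio of the end of chromosome 9 to its own chromosome was 1.97 in GV oocytes, the highest of the 29, and -0.41 in 8-cell embryos, with 45.4 and 39.2 peaks per Mb. From 4-cell to 8-cell embryos its ratio to its own chromosome had the lowest factor of all ends, 0.360, and that of chromosome 25 the highest, 0.947. In 8-cell TBE against 8-cell embryos the factor was highest on chromosome 20, at 3.63 (115 against 35.0 peaks per Mb), and lowest on chromosome 18, at 1.196 (106 against 84.7). The ends above their own chromosome numbered 29 of 29 in GV oocytes and 8-cell TBE, 28 in 4-cell and 4-cell TBE, 22 in 2-cell, 25 in 2-cell TBE, 24 in morula, 20 in ICM and in ESC, and 13 in 8-cell embryos.

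Among the 816 windows of 3 Mb, ends ranked at a median percentile of 96.1 in GV oocytes, 93.3 in 4-cell embryos and 96.9 in 8-cell TBE. Their median percentile was 44.6 in 8-cell embryos, 78.7 in morula, 72.7 in ICM and 66.3 in ESC. In 8-cell TBE 28 of 29 ends were among the densest 10% of windows, and in 8-cell embryos 2 were.

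Terminal peaks were slightly wider than peaks of the rest. Median widths at the ends and in the rest were 385 ± 36.0 and 379 ± 37.0 bp in GV oocytes, 262 ± 55.8 and 262 ± 58.1 bp in 2-cell, 335 ± 68.0 and 324 ± 57.8 bp in 4-cell, and 424 ± 47.4 and 373 ± 38.7 bp in 8-cell embryos (mean ± SD of 3 library medians). They were 395 ± 35.8 and 374 ± 23.4 bp in morula, 400 ± 34.1 and 365 ± 26.1 bp in ICM, and 357 ± 59.8 and 311 ± 29.01 bp in ESC. In TBE they were 259 ± 30.1 and 243 ± 42.7 bp at the 2-cell, 266 ± 48.1 and 249 ± 36.5 bp at the 4-cell, and 592 ± 188 and 491 ± 161 bp at the 8-cell stage. The mean ratio was thus near 1 in GV oocytes and in control embryos until the 4-cell stage, 1.07 in 2-cell TBE and 1.06 in 4-cell TBE, and highest in 8-cell TBE. Its libraries had 1.19, 1.203 and 1.23, where no control library of the 8-cell stage exceeded 1.15, while ESC, at 1.02, 1.17 and 1.23, overlapped them. Over the 10 condition means the log2 width ratio was 0.11 ± 0.08 (SD, exact sign-flip permutation test, p = 0.00195, adjusted p = 0.00586) and it was above 0 in 26 of 30 libraries. No peak was narrower than 200 bp, which limits the ratio in lists with many such peaks. In 2-cell replicate 2, 50.8% of terminal and 54.9% of other peaks had this width, so both medians were 200 bp. In 4-cell TBE replicate 3 they were 43.7% and 43.2%. The part of this lower limit in the width ratios and their differences between conditions was not tested.

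The width ratio differed between conditions (permutation test with 100000 relabellings, F = 5.13, p = 0.0014, adjusted p = 0.0021). This call was lost against the stretch from 3 to 6 Mb (F = 0.758, permutation adjusted p = 0.665), with the 708 strongest peaks (F = 1.14, permutation adjusted p = 0.383) and without replicate 2 (F = 2.21, permutation adjusted p = 0.167). The call for the overall excess in width was lost in the last 5 Mb (0.06 on the log2 scale), with −log10 q of at least 3 (0.07) and with the 708 strongest peaks (0.04), with adjusted p of 0.0684, 0.164 and 0.255 by exact sign-flip permutation tests. Peaks of at least 1 kb made up 24.4% ± 12.3 of terminal and 18.4% ± 8.23 of other peaks in 8-cell TBE, and 15.7% ± 2.58 and 15.4% ± 2.41 in 8-cell embryos (mean ± SD, n = 3).

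Fold enrichment, the mean pileup of a peak over the local background, was lower at the ends by a small margin. Median values were 3.81 ± 0.161 at the ends and 3.98 ± 0.163 in the rest for GV oocytes, 3.68 ± 0.261 and 3.90 ± 0.125 at the 8-cell stage, 3.70 ± 0.217 and 4.10 ± 0.262 in ICM, and 3.04 ± 0.728 and 3.23 ± 0.659 in 8-cell TBE (mean ± SD of 3 library medians). In 2-cell embryos they were 4.06 ± 0.328 and 4.01 ± 0.264, in 2-cell TBE 4.18 ± 0.314 and 4.11 ± 0.186, and in 4-cell TBE 3.95 ± 0.185 and 3.90 ± 0.240. Terminal peaks were thus lower than the rest in 7 of 10 conditions, with the largest gap in ICM, and higher by less than the spread of libraries in the other 3. The mean log2 ratio was -0.05 ± 0.06 (SD, n = 10 conditions, exact sign-flip permutation test, p = 0.0332, adjusted p = 0.0332), a 0.968-fold level. The call was lost in 5 of 10 alternatives, among them the stretch from 3 to 6 Mb as the rest, where the mean was 0.000574 (exact sign-flip permutation test, adjusted p = 0.973). Ratios differed between conditions (permutation test, F = 3.86, p = 0.00656, adjusted p = 0.00656), but without replicate 2 the permutation test gave an adjusted p of 0.167 (F = 1.92).

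For recurrence, peaks of a condition were merged and kept where at least 2 of 3 replicates had one, and the regions of the 10 conditions were merged again. Terminal regions numbered 2630 of 31724 in GV oocytes, 25 of 422 in 2-cell, 903 of 14275 in 4-cell and 3680 of 115953 in 8-cell embryos, or 8.29%, 5.92%, 6.33% and 3.17%. Their share was 4.16% in morula, 4.01% in ICM, 3.76% in ESC, 5.97% in 2-cell TBE, 5.49% in 4-cell TBE and 8.83% in 8-cell TBE, where 7008 of 79377 regions were terminal. The merged set held 265519 regions, 11865 of them terminal, and a terminal region was present in a mean of 2.26 conditions against 2.08 in the rest.

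Regions at the ends were more often present in 5 or more conditions, by a margin that depended on the replicates used. Of terminal regions 12.1% were in 5 or more conditions (Clopper-Pearson 95% interval 11.5% to 12.7%, for counting error only), against 8.998% of the rest, and 49.4% against 51.1% were in a single condition. The share in 5 or more conditions was 18.4% in the outermost 250 kb, 16.1% from 250 to 500 kb, 13.7% from 500 kb to 1 Mb, 12.0% from 1 to 2 Mb and 9.22% from 2 to 3 Mb, so that it declined from the end inward to the level of the rest. At 9 or 10 conditions the ends did not stand out, with 69 of 11865 regions (0.582%) against 0.588% of the rest. Without replicate 3 of every condition 9.10% of terminal regions were in 5 or more conditions against 8.33% of the rest, and in exactly 2 conditions were 20.6% against 24.3% with all replicates. Regions are not replicates and no test was made. Presence in more conditions depends on the density and width of regions, which differed between ends and rest, and their part was not tested.

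**Figure D4:**
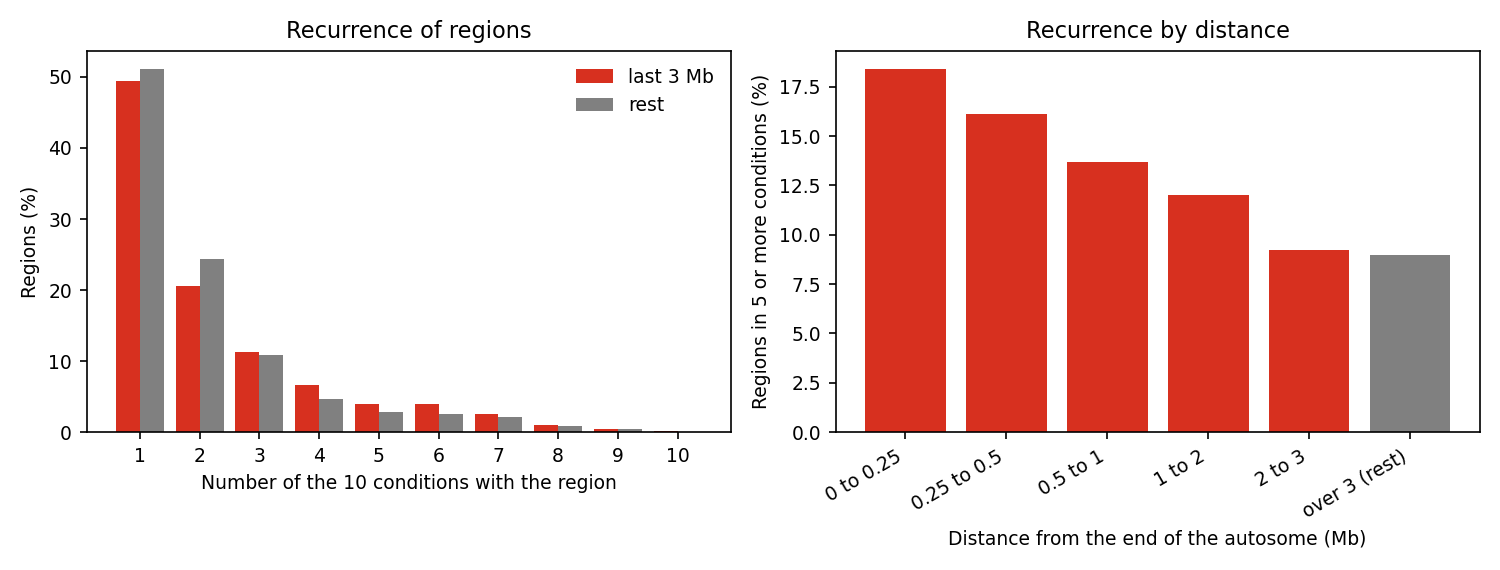
Left, percentage of regions (vertical axis) present in a given number of the 10 conditions (horizontal axis), for the last 3 Mb (red) and the rest (grey). Right, percentage of regions present in 5 or more conditions by distance from the end in Mb, from 18.4% in the outermost 250 kb to 9.22% at 2 to 3 Mb, beside 8.998% in the rest.

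The conditions shared differed between ends and rest. Regions of 8-cell TBE alone made up 23.0% of terminal regions (2732) and 9.38% of the rest, and regions shared by GV oocytes and 8-cell TBE only 2.83% (336) against 0.539%. Those of 8-cell embryos alone made up 3.62% (429) and 11.7%, and those shared by 8-cell embryos and morula only 4.36% (517) and 10.7%. Regions with GV oocytes were thus more frequent at the ends, at 21.9% of terminal regions against 11.3% of the rest, as were those with 8-cell TBE, at 58.6% against 28.3%. Regions with 8-cell embryos were less frequent, at 30.4% against 43.7%. These shares are not independent of the density ratios of the conditions.

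Terminal regions of GV oocytes were followed through the later groups. Of the 2630, 1309 (49.8%) overlapped a region of 8-cell embryos, against 64.7% of the GV regions in the rest. In 8-cell TBE 2077 of them (79.0%) had an overlapping region, against 71.7% in the rest. Over all autosomes 8-cell embryos had more regions than 8-cell TBE (115953 against 79377), but at the ends they had fewer (3680 against 7008). The ends were thus below the rest in 8-cell embryos and above it in 8-cell TBE, and in morula (63.5% against 73.1%), ICM (45.9% against 64.5%) and ESC (42.4% against 61.1%) they were below it. These shares depend on the length of each set and on how much of the ends and of the rest it covers. Peaks of 8-cell TBE covered 82.1 kb per Mb at the ends and 34.7 in the rest, and those of 8-cell embryos 30.24 and 30.25 (means of 3 libraries). The shares are thus not independent of the density ratio, and they were not tested.

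Regions present in 10 of 10 conditions numbered 16 at the ends, 0.135% of terminal regions against 0.0954% of the rest. The 6 with the highest fold enrichment over all libraries lay on chromosomes 7, 5, 21, 25, 12 and 4, with positions given in ARS-UCD1.2. The region at chr5:120080177-120081907 reaches to the outermost base of any peak on that chromosome, had a peak in 30 of 30 libraries and a fold enrichment of 7.36 ± 1.44 (mean ± SD over libraries with a peak), from 4.92 ± 1.11 in ESC to 9.49 ± 0.354 in 8-cell embryos. The region at chr21:68449891-68450921, also in 30 libraries, had 7.27 ± 2.09 and was highest in 4-cell embryos, at 10.2 ± 1.60, and lowest in morula, at 4.53 ± 0.535. The tallest of the 6, chr7:110398196-110398657, had 8.47 ± 3.48 in 27 libraries, with 5.26 ± 0.873 in GV oocytes, 11.3 ± 1.69 in 8-cell embryos, 14.2 ± 2.54 in morula and 12.1 ± 1.56 in 8-cell TBE. Regions that recurred everywhere therefore did not share a stage at which they were highest.

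The other 3 of these regions were chr25:40552138-40553558 (6.72 ± 1.96, 27 libraries), chr12:87143075-87143975 (6.71 ± 1.25, 28 libraries) and chr4:119844319-119846372 (6.62 ± 1.55, 29 libraries). The first was highest in morula, at 9.63 ± 0.674, and the second in GV oocytes, at 8.36 ± 0.829. The third, whose start lies 70.5 kb from the outermost peak base, was highest in 4-cell embryos, at 8.39 ± 0.865, and lowest in morula, at 4.03 ± 0.358 in the 2 libraries with a peak.

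Regions of a single condition showed the reverse case, and for each condition the one with the highest fold enrichment was taken. In GV oocytes it was chr16:78234437-78234941, with 5.38 ± 1.44 in 3 libraries, and in 4-cell embryos chr14:80116588-80116817, with 4.13 ± 0.140 in 2. In 8-cell embryos it was chr1:157852521-157852907 (7.19 ± 0.289), in morula chr13:82506058-82506431 (7.73 ± 2.40), and in ICM chr7:107895235-107895582 (7.89 ± 1.94), each in 3 libraries, and in ESC chr26:50559806-50560159, with 7.72 ± 0.971 in 2. These 6 regions had no peak in any library of another condition. The TBE regions had peaks elsewhere, and they came from 1 terminal region of 2-cell TBE alone, 2 of 4-cell TBE and 2732 of 8-cell TBE, against 331 of GV oocytes and 1499 of morula. That of 2-cell TBE, chr3:119054275-119054621, had a peak in 5 libraries of other conditions, that of 4-cell TBE, chr29:49667959-49668483, in 1 GV library, and that of 8-cell TBE, chr14:79571928-79572850, in 1 4-cell library. No terminal region was found in 2-cell embryos alone.

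Regions gained between the 4-cell and the 8-cell stage were a smaller part of the ends than of the rest. Of 3680 terminal regions of 8-cell embryos, 2996 (81.4%) overlapped no region of 4-cell embryos, against 89.5% of all 115953 autosomal regions of that stage, and 24.1% of terminal 4-cell regions were lost against 14.4% in the rest. Terminal regions formed 2.89% of the gained and 5.63% of the kept regions of 8-cell embryos. From 8-cell embryos to morula 3484 of 6466 terminal regions (53.9%) were gained, against 48.4% of all, and 19.6% of terminal 8-cell regions were lost against 31.5% in the rest. These shares are not independent of the density ratios of the stages and were not tested.

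Under α-amanitin a larger share of control regions overlapped a TBE region at the 8-cell ends than in the rest, and a larger share of TBE regions had no control counterpart. TBE peaks covered 82.1 ± 67.0 kb per Mb at the ends and 34.7 ± 33.4 in the rest (mean ± SD, n = 3), and the median TBE region was 1195 bp wide at the ends and 1000 bp in the rest. Overlap by 1 bp becomes more frequent with the length covered, and the larger of 2 sets has more regions without a counterpart. Neither share is therefore independent of the density ratio, and the parts of coverage and number in them were not tested. Of the 3680 terminal 8-cell regions, 1440 (39.1%) overlapped no region of 8-cell TBE, against 69.3% of all autosomal regions. Of 7008 terminal regions of 8-cell TBE, 4789 (68.3%) overlapped no 8-cell control region, against 55.8% of all, and terminal regions formed 10.8% of the regions found in TBE but not in controls. Of these 4789, 912 (19.0%) overlapped a region of GV oocytes, 2-cell or 4-cell embryos, against 11.9% in the rest, and 1173 (24.5%) a region of morula, against 23.0%. The share overlapping an earlier stage was thus higher at the ends than in the rest, and it depends on the early sets, of which that of 2-cell embryos held 422 regions. It came mostly from GV oocytes, with 812 regions (16.96%) against 9.73% in the rest, while 4-cell embryos gave 3.99% against 3.28%. Overlaps with ICM (12.6% against 14.0%) and ESC (13.6% against 16.8%) were less frequent at the ends.

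The same question was asked with control libraries that had no part in choosing the regions. Regions gained against the 4-cell stage were taken from 2 control replicates, and the percentage without a peak was then counted for the remaining control library, which is called held-out, and for every TBE library, over 2016 to 2431 terminal regions and 69220 to 81391 others. This gave 3 sets of regions, and the value of a TBE library is its mean over them. At the ends, held-out controls lacked 16.99%, 24.8% and 8.98% of these regions, and TBE libraries 49.2%, 36.1% and 65.0%. In the rest, held-out controls lacked 18.8%, 20.4% and 6.45%, and TBE libraries 77.9%, 61.8% and 85.7%. Every TBE library thus lacked more gained regions than any control, at the ends as elsewhere, but fewer at the ends than in the rest. TBE peaks covered 82.1 kb per Mb at the ends and 34.7 in the rest, and control peaks 30.24 and 30.25 (means of 3 libraries). These percentages, and the differences below, are thus not independent of the density ratio, and the part of coverage in them was not tested.

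The difference between ends and rest was 1.71 ± 3.17 percentage points in held-out controls and -25.0 ± 4.03 in TBE (mean ± SD, n = 3 libraries). TBE differed from controls by -26.7 points (permutation test over all arrangements, p = 0.1, the smallest that 3 libraries against 3 allow), with no overlap. Each control value came from a different set of regions, chosen by the other controls, whereas TBE values were means over all sets. The labels are therefore not strictly exchangeable, and the p-values of this measure are approximate. With peaks of fold enrichment of at least 3 the value was -15.8 points, more than 1.5 times smaller (permutation test over all arrangements, p = 0.1). TBE replicate 2, whose list was the longest, lacked the fewest regions in both parts.

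**Figure D5:**
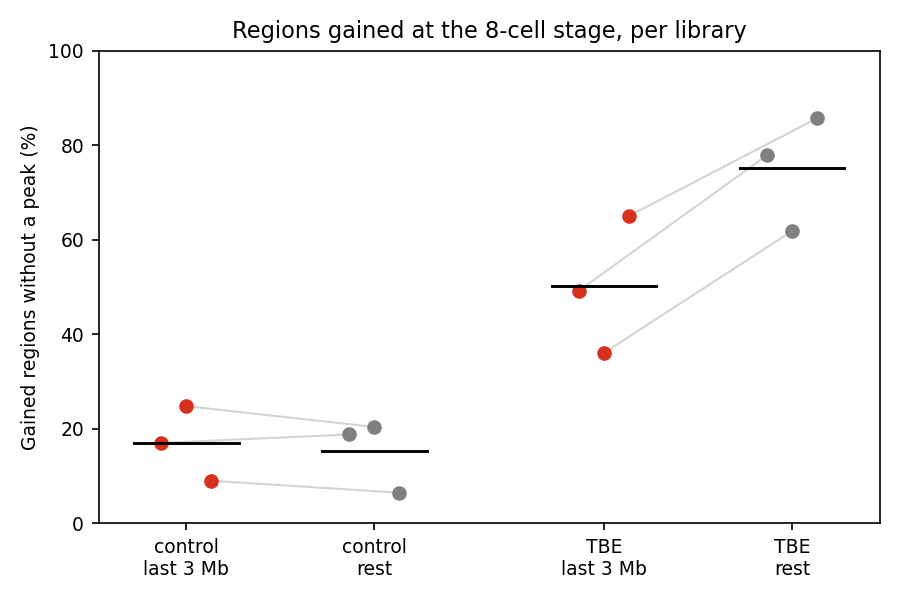
Percentage of regions gained at the 8-cell stage that had no peak in a library (vertical axis), for held-out control and TBE libraries. Red points are regions of the last 3 Mb and grey points those of the rest, grey lines join the values of a library and black bars are means of 3 libraries. In TBE the means are 50.1% at the ends and 75.1% in the rest, in held-out controls 16.9% and 15.2%.

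Counted by library, 551 of 8419 terminal regions of the 8-cell stage (6.54%) had a peak in all 3 control and no TBE library, against 23.6% of all 159403 regions of that stage. The reverse, a peak in all 3 TBE and no control library, held for 877 terminal regions (10.4%), against 3.93% of all. The ends thus lay below the background for regions missing under α-amanitin and above it for regions seen only there. The set joins control and TBE regions, which numbered 3680 and 7008 at the ends but 115953 and 79377 over all autosomes. Neither share is therefore independent of the density ratio, and the part of density in them was not tested.

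Among regions with a peak in all 3 control and no TBE library, the 4 tallest at the ends were chr9:104267929-104268409, chr7:110607637-110608109, chr7:110044315-110044938 and chr28:44825664-44826025, with fold enrichments of 9.65 ± 1.69, 9.13 ± 0.536, 8.71 ± 0.158 and 8.38 ± 0.894 in 8-cell embryos (mean ± SD, n = 3). All 4 also had a peak in 3 of 3 morula libraries, at 10.9 ± 1.15, 7.53 ± 1.24, 8.34 ± 1.54 and 6.36 ± 1.67. None had a peak in GV oocytes, in 2-cell or 4-cell embryos, in ESC or in TBE of any stage, and the region on chromosome 9 had 1 in a single ICM library. Their presence at the 8-cell stage was set by the choice of regions, whereas that in morula was not.

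Among regions with a peak in all 3 TBE and no control library of the 8-cell stage, the tallest were chr14:79419190-79419525, with 7.03 ± 1.202, chr4:119707868-119708582, with 6.57 ± 1.49, chr13:81130295-81130630, with 5.77 ± 0.980, and the region chr14:79571928-79572850 already named, with 5.70 ± 1.41 (mean ± SD, n = 3). The first also had peaks in 3 4-cell libraries, at 5.19 ± 0.570, and in 2 ESC libraries, at 4.48 ± 0.306. The second had peaks in 2 4-cell and 2 2-cell TBE libraries and in 3 morula libraries, there at 7.09 ± 1.60. The third was present in 5 conditions and 14 libraries, with 5.04 ± 0.904 over these libraries. Of the 4, 4 had a peak in at least 1 4-cell library, so that none was restricted to α-amanitin treatment.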

How the data were processed

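Broad peaks of bovine ATAC-seq libraries were used as deposited, 1 list for each of 30 libraries, grouped by the labels into 10 conditions of 3. The authors trimmed reads with Trim Galore and cutadapt 0.4.0, used BWA 0.7.17 for alignment to the ARS-UCD1.2 build, removed duplicates, mitochondrial alignments and alignments of a quality under 15 with PicardTools and SAMtools 1.7, and called broad peaks with MACS2 2.1.1 at a q-value of 0.05 (tools and build per the submitters' processing notes and the study's methods). Read numbers of single libraries were not read, and a supplementary table that the study names for them was not available. The methods describe merged and subsampled replicates, whereas each list used here belongs to 1 library. The deposited fold enrichment is the ratio of pileup to local background, averaged over a peak by the authors' caller. The deposited −log10 p-value and −log10 q-value were averaged likewise by the authors' caller, and the deposited score, a rescaled −log10 q-value, was not used. No genome or annotation of that build was used here, so no sequence or genic position is given. Deep lists give more peaks, and the ratio to the rest of the same library was computed for this reason.

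Members and lists were chosen with earlier results of these data known. Terminal peaks were counted as described, densities divided by length, and medians taken of width and fold enrichment. Conditions were tested with exact sign-flip permutation tests over 10 condition means (1024 arrangements), permutation tests of F with 100000 relabellings, and exact two-sided permutation tests of 3 libraries against 3 (20 arrangements), with Benjamini-Hochberg adjustment over 3, 3 and 9 results. The libraries of a stage are pools from 3 separate collections, and those of ESC come from cell lines, so p-values of F and of 3 libraries against 3 measure the spread between pools or cultures, and those of sign-flip tests the spread between conditions. Per the study's methods, embryos of a collection were divided between control and α-amanitin culture, so TBE and control libraries share collections, but labels do not say which belong together and the tests treat them as unpaired. Regions overlapped when they shared at least 1 bp. Windows of 3 Mb were compared by whether all libraries of a group exceeded all of another in density relative to the library's mean.

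Regions were named instead of genes, namely the 6 tallest in the largest number of conditions, the tallest of each single condition, the 4 tallest with peaks in all 3 control and no TBE library of the 8-cell stage and the 4 of the reverse, and the 4 densest and 4 sparsest ends. For chromosomes 7 and 9 and for the extremes between conditions, ends were picked after their values were seen.

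Alternatives were ends of 1 and 5 Mb, peaks with −log10 q of at least 3 or fold enrichment of at least 3, the 708 strongest peaks, other definitions of the rest, covered length, a rest density for each autosome, an overlap of 50%, regions from any or all 3 replicates, leaving out replicates and a replicate block. The top 10000 peaks (in the 7 conditions whose libraries all had as many), the gaps in the TBE difference between stages under each setting, and folds of mean density without single libraries were added after seeing the data. Python 3.11.15, numpy 2.4.6, scipy 1.17.1, pandas 2.3.3 and matplotlib 3.10.9 were used, and the functions were tested on simulated data.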

Additional observations from a re-analysis of the deposited data

Results flagged for a closer look

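The difference between TBE and control embryos in the log2 density ratio was not the same at every stage. It was 1.18 for 8-cell, -0.12 for 4-cell and -0.06 for 2-cell embryos. The gap between the 8-cell and the 4-cell stage was 1.30 (exact permutation of labels within each stage, 400 arrangements, p = 0.02), and that between the 8-cell and the 2-cell stage was 1.24 (exact permutation, same arrangements, p = 0.03). All 3 8-cell TBE libraries lay above all 3 controls of their stage, and at the 2-cell and 4-cell stages the groups overlapped. Both gaps depended on the setting. With the stretch from 3 to 6 Mb as the rest they were 0.24 to the 4-cell stage (exact permutation, p = 0.185) and 0.48 to the 2-cell stage (p = 0.01). Lists of the earlier stages were shorter, and with equal numbers, the 708 strongest peaks of each library, the gap to the 4-cell stage was 0.63 (exact permutation, p = 0.365) and that to the 2-cell stage 1.34 (p = 0.01). Libraries of the 2-cell and 4-cell stages were amplified for 13 cycles and those of the 8-cell stage for 11, which cannot be told apart from the stage.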

How the results depend on the processing

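Of 282 alternatives, 224 gave the same call and direction, 24 were weaker (same direction, call lost), 25 reversed a direction and 9 moved a value. Comparisons of 3 libraries against 3 had no call to lose, so for them the same means direction only, whatever the size, and the 4-cell to 8-cell step counted as the same at -0.0839. The cause was not tested for any of them. The difference between conditions in density ratio passed in all 13 alternatives (F from 6.04 to 36.6). The 4-cell to 8-cell step stayed negative in 13 (log2 -0.97 to -0.08) and the 8-cell TBE difference positive in 14 (0.30 to 1.47). The held-out difference stayed between -28.9 and -15.8 points in 8.

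With ends of 1 Mb the log2 fold enrichment ratio was weaker (-0.0233) and the 2-cell to 4-cell step reversed (-0.16). With 5 Mb the width ratio was weaker (0.0589) and the 2-cell TBE difference reversed (0.0218). With −log10 q of at least 3, density (0.58), width (0.0662) and fold enrichment (-0.0308) ratios were weaker, and the 2-cell to 4-cell step (-0.37), the morula to ICM step (-0.25) and the 4-cell TBE difference (0.19) reversed. With fold enrichment of at least 3 the fold enrichment ratio was weaker (-0.0295) and the morula to ICM step reversed (-0.0564).

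With the 708 strongest peaks, density (0.51), width (0.0399) and fold enrichment (-0.0224) ratios and the difference in width between conditions (F = 1.14) were weaker. Steps from GV oocytes to 2-cell (0.0873), 2-cell to 4-cell (-0.54), 8-cell to morula (-0.0744), morula to ICM (-0.71) and ICM to ESC (0.63) and the 4-cell TBE difference (0.45) reversed. With the top 10000 peaks, an alternative added after seeing the data, the density ratio was weaker (0.43), and the steps from morula to ICM (-0.35) and ICM to ESC (0.00882) reversed.

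With the stretch from 3 to 6 Mb as the rest, the fold enrichment ratio (0.000574), the steps from GV oocytes to 2-cell (0.18) and 2-cell to 4-cell (-0.17) and the 4-cell TBE difference (0.0560) reversed, and the difference in width between conditions was weaker (F = 0.758). Without the first 3 Mb of each autosome in the rest the 2-cell to 4-cell step reversed (-0.0183), as it did with covered length (-0.0825).

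Leaving out a replicate gave -0.0365 to 0.0807 for the 2-cell to 4-cell step, -0.0944 to 0.160 for morula to ICM, -0.22 to 0.12 for 2-cell TBE, F from 2.21 to 8.57 for width and from 1.92 to 4.67 for fold enrichment between conditions, and 9.10% to 11.8% for terminal regions in 5 or more conditions (10.8%, 11.8% and 9.10% without replicates 1, 2 and 3, rest 7.58%, 8.51% and 8.33%). That share was 14.5% with regions from any replicate (rest 9.66%), 10.96% from all 3 (8.46%), 15.3% in the last 1 Mb (9.05%), 11.3% in the last 5 Mb (8.96%) and 10.3% with −log10 q of at least 3 (7.67%).

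With replicates of the same number as a replicate block, TBE differences were -0.06 at the 2-cell (exact permutation p = 0.75), -0.12 at the 4-cell (p = 0.25) and 1.18 at the 8-cell stage (p = 0.25), and the held-out difference -26.7 points (p = 0.25, the smallest that a block of 3 allows). Whether numbers pair samples was checked by correlating window densities of TBE and control libraries, centred on their group means. Same-number correlations were 0.387, 0.217 and 0.0403 at the 8-cell stage and -0.04 to 0.08 at the earlier stages, and not every library correlated best with its own number. The numbers were therefore not taken to pair samples, and block results are given only here.

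The gaps in the TBE difference between stages were put under each setting after seeing the data. The gap between the 8-cell and 2-cell stages was weaker with 5 Mb (1.12), and that between the 8-cell and 4-cell stages with −log10 q of at least 3 (1.28), with the 708 strongest peaks (0.631) and with the stretch from 3 to 6 Mb (0.243). Leaving out a replicate gave 0.959 to 1.401 and 1.19 to 1.49, with 36 arrangements that cannot give a p below 0.05. Folds of mean density without single libraries, also added, ran from 0.490 to 1.196 for the rest in 8-cell TBE, and from 7.63 to 28.7 (ends) and 7.07 to 29.1 (rest) from the 2-cell to the 4-cell stage.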
